A study of Mus musculus with 25 samples.

Results

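The Obox genes are a family of mouse homeobox genes, which encode DNA-binding proteins of the homeodomain type. Its members were taken as every row whose symbol was exactly Obox1, Obox2, Obox3, Obox5, Obox6 or Obox7. All 6 were found among the 24412 gene symbols listed for each library, and no other row carried an Obox symbol. All 6 also passed the filter on low values, which left 12079 genes for testing. Obox transcripts are abundant in the mouse oocyte, and the family is known for acting around the time when the embryo starts its own transcription, with members that can stand in for one another. The egg loads some members as maternal RNA, which is cleared in the 2-cell embryo, while other members are made by the embryo.

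The 25 libraries covered 4 stages: mature unfertilised eggs (MII), zygotes with visible pronuclei (PN3), and 2-cell embryos taken early (E2C) or late (L2C). Each stage was either wild type (WT) or labelled Smarca4 KO. Smarca4 encodes a catalytic ATPase of the BAF chromatin remodelling complex. The labels name 2 kinds of female as egg donors, B6D2F1 and Smarca4flox/flox Gdf9 Cre on C57BL/6, aged 8 to 12 weeks and superovulated with 7 IU of PMSG and, 48 h later, 5 IU of hCG. Gdf9 Cre acts in oocytes, so the deletion is maternal. The eggs were collected for sperm injection (ICSI). The labels do not say which female gave which library, so strain and genotype cannot be told apart. WT and KO were each represented by 4 libraries at PN3 and by 3 at E2C and L2C, while the eggs had 3 WT and 2 KO libraries. Separate females are not stated for the replicates, so a p-value rests on spread between libraries, which may be technical. For each gene that spread was pooled over all 25 libraries and scaled by a weight per stage. It is therefore not the gene's own spread among the libraries of a single stage.

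Levels are FPKM, fragments counted per length of gene and per size of library, rescaled between libraries, and errors are SDs over libraries. FPKM are corrected for gene length, so levels of different members can be set side by side as far as reads were assigned correctly. They are shares of a library, so a change in the total RNA of an embryo cannot be seen, and fewer cells of a type and less RNA per cell cannot be told apart. The read depth is unknown. Differences are on the log2(scaled FPKM + 1) scale with their standard error (SE). A gene was called at a Benjamini-Hochberg adjusted p under 0.05 over all genes tested (limma, with a variance weight for each stage).

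Smarca4 itself was 26.0 to 33.2 in the 7 WT libraries of MII and PN3, and 0.219 to 0.448 in the 6 KO libraries. At L2C the 3 WT libraries had 90.4, 74.0 and 48.5, and the KO libraries 21.0 to 22.5. The summed level of 10 oocyte markers was 2541 to 2596 in WT MII and 373 to 859 in WT L2C. Of 12 cumulus and granulosa cell markers, 11 were under 1 in every WT library of a stage, at each of the 4 stages. The sum over 9 sperm and testis markers was 1.24 to 9.32, apart from KO E2C replicate 2 with 20.8. One WT E2C library, replicate 2, had 9345 genes above 0, against 13585 to 16698 in the other 24 libraries. WT L2C replicate 3 stood apart from the other 2 WT L2C libraries. Its oocyte marker sum was 859, against 373 and 406 in those 2 and 685 to 936 in KO L2C, and its sum over 14 markers of the 2-cell embryo was 485, against 99.2 and 144 in those 2 and 309 to 408 in KO. Values at L2C that rest on it are given with and without it below. Because this library was singled out on values of these same data, results without it are descriptions and add no support.

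All 6 members lie on chromosome 7 (RefSeq, GRCm38.p6), in the order Obox7 (14659708 to 14665996), Obox2 (15388851 to 15398545), Obox1 (15547257 to 15556846), Obox3 (15625306 to 15639777), Obox5 (15750370 to 15759274) and Obox6 (15833250 to 15839679). Promoter windows, 250 bases before to 50 after the start, were matched in a table from RefSeq for 5 of the 6 members, all but Obox6. Their last 120 bases before the start are shown because members that share promoter stretches did not all follow the same course. Capitals mark 2 shared blocks as far as they reach into these 120 bases, the first being GTGAGAATTAAGGATTTGAATATTG.
Obox1, chr7:15547137-15547256, plus strand: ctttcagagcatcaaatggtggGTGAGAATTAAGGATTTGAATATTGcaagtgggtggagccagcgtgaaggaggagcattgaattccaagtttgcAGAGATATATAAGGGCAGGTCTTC
Obox5, chr7:15750250-15750369, plus strand: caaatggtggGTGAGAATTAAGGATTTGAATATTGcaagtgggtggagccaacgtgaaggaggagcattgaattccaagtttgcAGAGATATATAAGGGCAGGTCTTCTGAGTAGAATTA
Obox7, chr7:14659588-14659707, plus strand: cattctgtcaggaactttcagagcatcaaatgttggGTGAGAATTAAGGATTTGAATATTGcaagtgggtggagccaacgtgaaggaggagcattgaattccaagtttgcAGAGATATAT
Obox3, chr7:15639778-15639897, minus strand: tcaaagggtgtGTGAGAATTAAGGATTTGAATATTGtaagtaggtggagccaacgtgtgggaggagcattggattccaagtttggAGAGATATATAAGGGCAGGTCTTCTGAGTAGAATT
Obox2, chr7:15388731-15388850, plus strand: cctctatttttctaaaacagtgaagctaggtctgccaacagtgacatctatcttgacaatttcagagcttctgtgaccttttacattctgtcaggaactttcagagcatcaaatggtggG

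The blocks were picked as the longest stretches common to these windows, with Obox2 left out for the second. That the members hold them follows from this choice. The first block, 25 bases long, was in all 5 windows and in 0 of 32846 windows of other genes. In Obox2 it runs from position -1 to 24, so only its first base falls in the stretch shown. The second block, 42 bases long, was in the windows of Obox1, Obox3, Obox5 and Obox7 and likewise in 0 of the 32846 others. Counted from the first block, the Obox2 window ends before the point where the second begins in Obox1. Whether Obox2 holds the second block beyond its window was not tested. Obox1 and Obox2 shared a stretch of 203 bases with 100% identity, at different distances from the annotated start. Obox3 and Obox5 were 92.6% identical over 175 aligned bases. Obox1, Obox5 and Obox7, which are grouped by course below, were 95.8% to 97.1% identical to one another over 268 to 285 aligned bases. Of motifs searched on both strands, TATATAA was in 4 of the 5 windows, those of Obox1, Obox3, Obox5 and Obox7, where it lies inside the second block, and in 3.24% of all 32851 windows. Since the Obox2 window stops short of that block, its lack of TATATAA does not show that Obox2 lacks the motif there. TAATCC, a core bound by OTX-type homeodomains, was in the Obox3 window only and in 7.06% of all windows. TAATTG and TAATTA, both forms of the NOBOX element, were in 0 of the 5 (8% and 5.29% of all windows). CCAAT was in 3 (37.4% of all) and CANNTG in 4 (72.3% of all). Such matches describe letters and are not binding sites.

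The members' transcripts also resemble one another, which bears on how well reads could be assigned. Over the aligned coding bases Obox1 and Obox2 were 98.5% identical, while Obox6 was 74.1% to 79.9% identical to the others. Of 150-base stretches of the Obox1 transcript, 31.4% also occurred in Obox2, and 32.7% of those of Obox2 occurred in Obox1. In the GENCODE annotation the span of Obox1 begins at 15388948, inside Obox2, and it overlaps Obox3 on the opposite strand. Values of Obox1 and Obox2 are therefore uncertain as separate measurements, and so are the orders, shares and ratios that rest on them. Of Obox3, 10.7% of stretches occurred in a gene outside the 6 members. Obox5, Obox6 and Obox7 shared 0% of stretches of that length. RefSeq lists 47 Obox pseudogenes, and reads from them could not be followed here.

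In WT the 6 members followed 3 courses, a grouping made after their values were seen. Obox2 was highest in the egg and fell at every step. Obox1, Obox5 and Obox7 were already present in the egg, were highest at E2C and fell steeply by L2C. Obox3 and Obox6 had mean levels under 1 until PN3, appeared at E2C and were highest at L2C. By the rule of taking the stage of the highest WT mean, Obox2 counted as maternal and the other 5 as zygotically rising, so that rule puts Obox1, Obox5 and Obox7 with genes nearly absent from the egg.

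**Figure D1:**
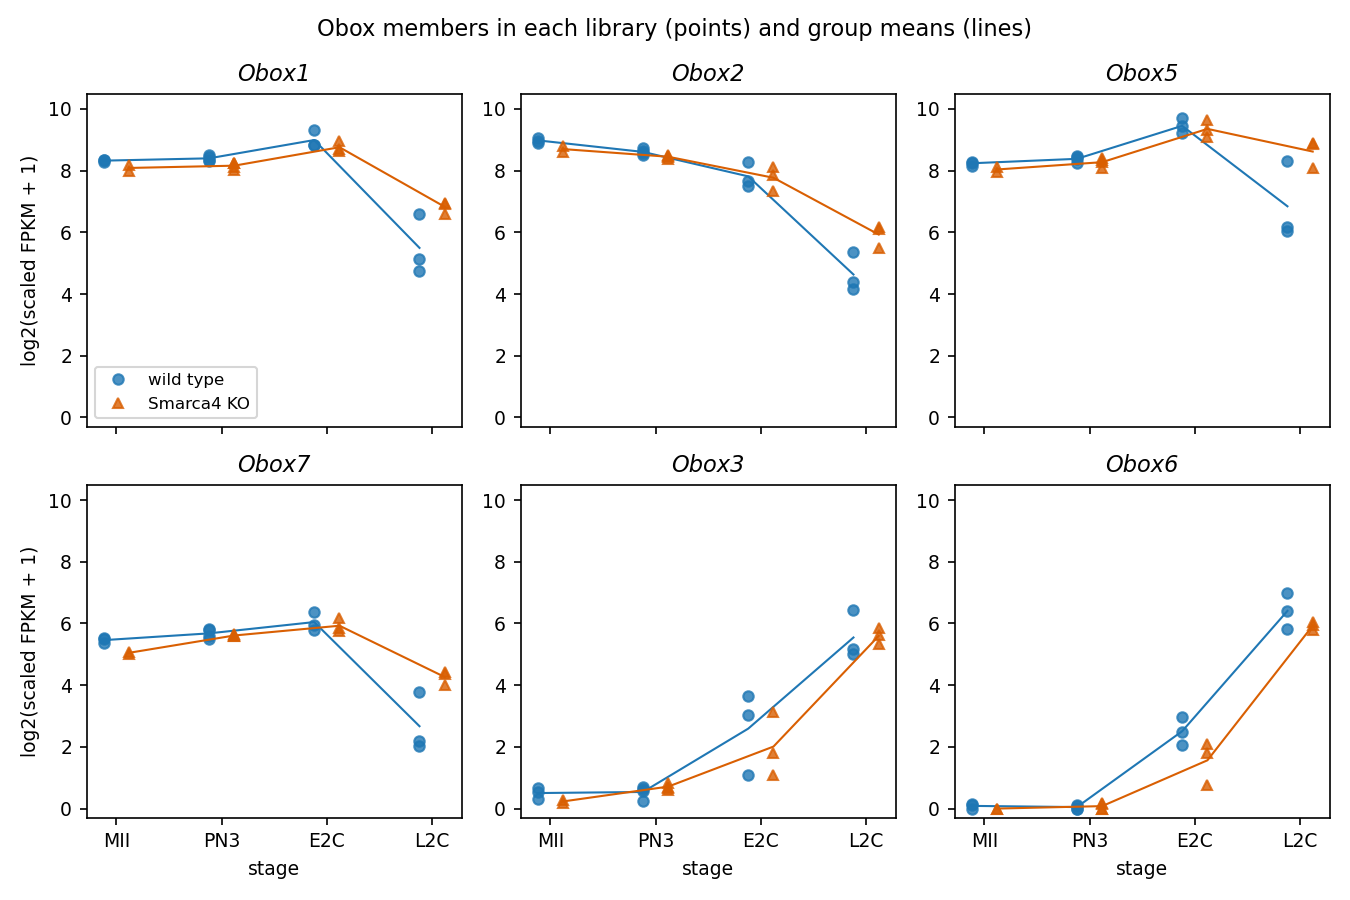
Level of each Obox member, as log2(scaled FPKM + 1), by stage, with each library as a point (circles WT, triangles KO) and lines joining group means. Obox1, Obox2, Obox5 and Obox7 fall between E2C and L2C in WT while Obox3 and Obox6 rise, and 1 WT library at L2C, replicate 3, lies near the KO libraries for the first 4.

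Obox2 was 535, 500 and 480 in the 3 WT MII libraries, the highest level of any member at that stage. It was 359 to 420 in WT PN3, 182, 200 and 309 in WT E2C, and 20.0, 16.8 and 39.7 in WT L2C. No WT library of a later stage reached the lowest of the stage before. Its log2 level fell by 0.37 from MII to PN3 (SE 0.0809, limma adjusted p = 0.000526), by 0.79 from PN3 to E2C (SE 0.227, adjusted p = 0.0105) and by 3.18 from E2C to L2C (SE 0.294, adjusted p = 8.99e-09). The PN3 to E2C call was lost without WT E2C replicate 1, at -0.64.

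Obox5 was 313, 306 and 285 in WT MII and 300 to 353 in WT PN3. It reached 696, 591 and 830 in WT E2C, the highest level of any member at any stage, and was 70.3, 65.6 and 318 in WT L2C. At L2C the first 2 libraries lay far below every earlier library, and the third, replicate 3, lay within the range of the egg and zygote. Obox5 rose from PN3 to E2C by 1.07 (SE 0.316, limma adjusted p = 0.0129) and fell by 2.61 from E2C to L2C (SE 0.410, adjusted p = 1.31e-05), or by 3.34 without WT L2C replicate 3 (SE 0.271, limma adjusted p = 1.34e-09). The rise was not called with FPKM as deposited, at 0.85, or without WT E2C replicate 3, at 0.95.

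Obox1 was 324, 325 and 309 in WT MII, 318 to 359 in WT PN3, 457, 454 and 632 in WT E2C, and 26.0, 34.2 and 95.5 in WT L2C. Its 3 E2C values lay above all earlier ones, yet the difference from PN3 was not called (0.59, SE 0.253, limma adjusted p = 0.0784). Obox7, the least abundant member in the egg apart from Obox3 and Obox6, was 43.9, 45.4 and 40.0 in WT MII and 61.0, 54.8 and 82.4 in WT E2C. Its PN3 to E2C difference was not called either (0.37, SE 0.258, limma adjusted p = 0.297). In WT L2C Obox7 was 3.58, 3.12 and 12.7. From E2C to L2C, Obox1 fell by 3.50 (SE 0.327) and Obox7 by 3.38 (SE 0.335), with limma adjusted p of 1.07e-08 and 2.37e-08. With WT L2C replicate 3 left out, the E2C to L2C differences were -4.04 for Obox1, -3.93 for Obox7 and -3.54 for Obox2, all called.

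Obox6 was 0 to 0.119 in the 7 WT libraries of MII and PN3. It was 6.91, 4.55 and 3.20 in WT E2C and 126, 84.5 and 55.6 in WT L2C, with no overlap between these stages. It rose by 2.46 from PN3 to E2C (SE 0.253, limma adjusted p = 1.35e-07) and by 3.90 from E2C to L2C (SE 0.327, adjusted p = 2.07e-09). As its PN3 level was near 0, the size of the first step depends on the 1 added before the log. Over all settings the first step ran from 0.96 to 5.19 and the second from 3.19 to 4.19, so the 2 sizes cannot be ranked.

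Obox3 was 0.184 to 0.638 in those 7 WT libraries. It was 7.13, 1.13 and 11.6 in WT E2C, the low value being replicate 2, the library with few genes above 0, and 31.5, 35.4 and 85.1 in WT L2C. It rose by 2.05 (SE 0.421, limma adjusted p = 0.000732) and then by 2.95 (SE 0.546, adjusted p = 9.03e-05). Over all settings the first rise ran from 0.98 to 3.15 and the second from 2.2 to 3.49, so these sizes cannot be ranked either. At L2C replicate 3 was the highest WT library for Obox3 and the lowest for Obox6. Without it, the E2C to L2C rise was 2.51 for Obox3 and 4.19 for Obox6, both called.

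Across the 6 members, 0 rose and 1 fell from MII to PN3 in WT, where 19.2% and 26.1% of all genes tested were called higher and lower. From PN3 to E2C 3 rose and 1 fell, against 12.9% and 18.1% of all genes. With FPKM as deposited, that split over all genes moved from 1560 higher and 2181 lower to 938 and 3039. From E2C to L2C 2 rose and 4 fell, against 34.1% and 18.3%. The median member difference at that last step was -2.89, and that of all genes tested was 0.25. From MII to L2C directly, Obox3 and Obox6 were called higher and the other 4 lower, against 40.4% and 33.3% of all genes. Leaving out WT L2C replicate 3, the counts of members at both steps were the same, and the median member difference from E2C to L2C was -3.44.

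**Figure D2:**
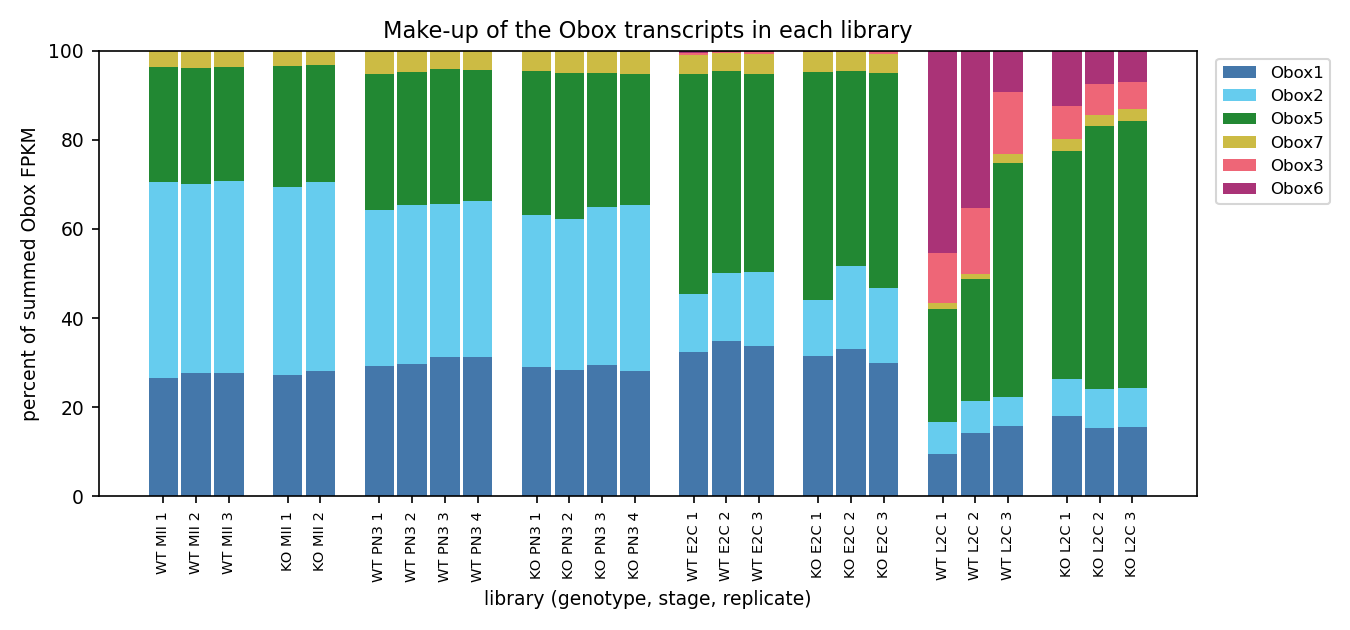
Percent of the summed FPKM of the 6 Obox members taken by each member, as stacked bars, in each of the 25 libraries. Obox2 holds 43.2% on average in WT MII and 6.93% in WT L2C, where replicates 1 and 2 hold more Obox6 than any other library. The Obox5 and Obox6 shares of replicate 3 (52.4% and 9.17%) lie in the KO ranges, while its Obox3 share (14.0%) lies between those of replicates 1 and 2.

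The order of the levels therefore changed with the stage. In WT MII it was Obox2, Obox1, Obox5 and Obox7, with Obox1 and Obox5 overlapping, and then Obox3 and Obox6, each under 1 in every library. In WT E2C it was Obox5, Obox1, Obox2, Obox7, Obox3 and Obox6, where Obox5 and Obox1 overlapped and so did Obox3 and Obox6. In WT L2C, by mean, it was Obox5, Obox6, Obox1, Obox3, Obox2 and Obox7, and each neighbouring pair overlapped apart from Obox2 and Obox7. That order rests on replicate 3, since in replicates 1 and 2 it was Obox6, Obox5, Obox3, Obox1, Obox2 and Obox7, in both. Obox6 and Obox5 had means of 105 and 68.0 over those 2 libraries and did not overlap.

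The summed level of the family moved less than its make-up until E2C. It was 1169 ± 51.1 (SD, n = 3) in WT MII, 1111 ± 69.3 (n = 4) in WT PN3, 1528 ± 299 (n = 3) in WT E2C and 374 ± 202 (n = 3) in WT L2C. Within that sum, the share of Obox2 was 43.2% ± 0.760 in WT MII, 35.1% ± 0.461 in PN3, 14.9% ± 1.85 in E2C and 6.93% ± 0.345 in L2C. The share of Obox5 was 25.8% ± 0.208, 30.0% ± 0.544, 46.4% ± 2.65 and 35.1% ± 15.1 at the same stages. Obox5 was 0.597 ± 0.0139 times the level of Obox2 in WT MII and 3.16 ± 0.598 times in WT E2C, and no library of either stage overlapped the other. The ratio of Obox1 to Obox7 stayed between 5.71 and 8.28 in every WT library up to E2C. At L2C, WT replicate 3 held 9.17% Obox6 and 52.4% Obox5, whereas the highest Obox6 share among the other 2 WT libraries was 45.3%.

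Likeness across all 25 libraries was measured as Pearson's r of log2(scaled FPKM + 1). Obox1 and Obox7 had 0.98, Obox3 and Obox6 0.95, and Obox2 and Obox6 -0.96. Although Obox1 and Obox7 were grouped above with Obox5, each had a higher r with Obox2 (0.87 for both) than with Obox5 (0.80 and 0.81). Without WT L2C replicate 3 the r with Obox2 was 0.86 for both, and that with Obox5 0.82 and 0.83. These libraries share stages and genotypes, so the values describe courses and carry no test. Among 8391 genes that reached a mean of 5 in some group, the closest to Obox1 and Obox7 were Gm6367 and Nlrp4a (r of 0.98 to 0.99 over 25 libraries), an NLRP family gene of the oocyte. Closest to Obox2 were Skp1a, a subunit of SCF ubiquitin ligases, Fbxw28 and Nlrp9b (0.98 to 0.99). Closest to Obox5 were Pla2g4c, a phospholipase, Pigf and AA545190 (0.96 to 0.97), and Pla2g4c was also 637 ± 96.4 at its highest, in WT E2C. Closest to Obox6 were Ccne1 (cyclin E1), Chka (choline kinase) and Rbbp6 (0.997, 0.996 and 0.996), and to Obox3 Rpp25, H2afz (a histone H2A variant) and Ppp1r8 (0.98 to 0.99). Ccne1 was 1.66 ± 0.207 in WT MII and 166 ± 33.7 in WT L2C.

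The comparison of KO with WT at each stage asks how the RNA of egg and embryo differs between the 2 labels. Loss of maternal Smarca4 and strain of the female cannot be told apart in it, also where a KO effect is named below. For the Obox family the 2 ends of the time course differed in direction. In MII oocytes Obox2 and Obox7 were lower in KO, by less than 0.5 on the log2 scale. At PN3 and E2C no member was called. At L2C the 4 members that WT embryos lose between E2C and L2C, Obox1, Obox2, Obox5 and Obox7, were higher in KO by 1.30 to 1.77, while Obox3 and Obox6 were not called.

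**Figure D3:**
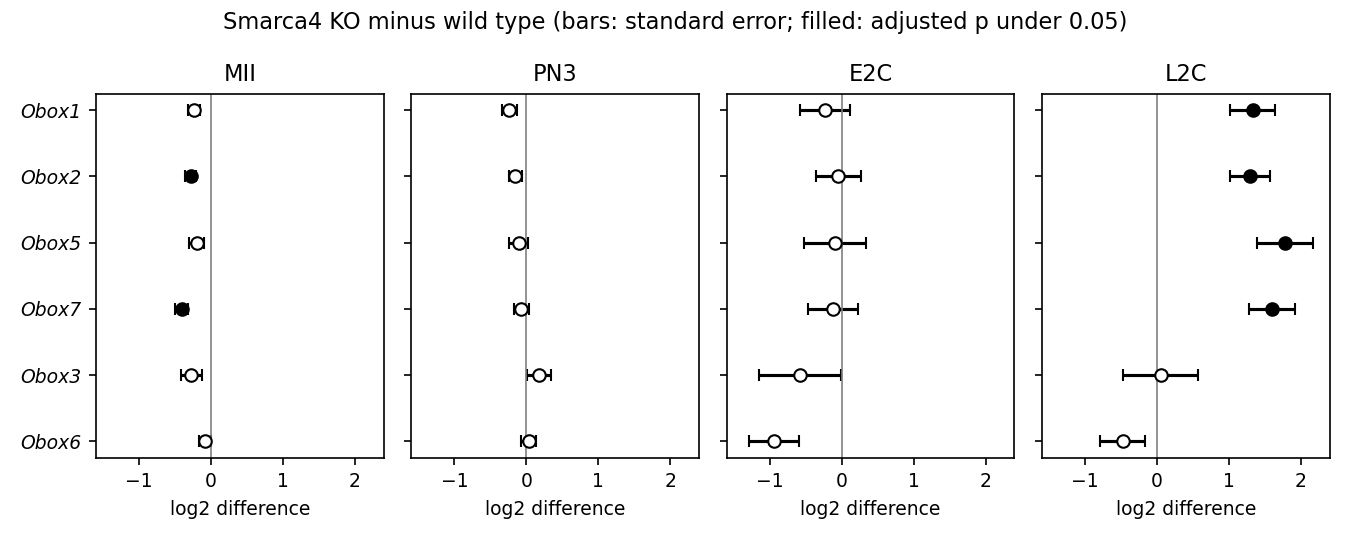
Difference between Smarca4 KO and WT in log2(scaled FPKM + 1) for each member at each stage, with bars of 1 standard error and filled points at adjusted p under 0.05. At MII the called members Obox2 and Obox7 lie below 0, and at L2C Obox1, Obox2, Obox5 and Obox7 lie between 1.30 and 1.77.

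At MII, Obox2 was 389 and 442 in KO, below all 3 WT libraries (480 to 535). The difference was -0.28 (SE 0.0773, limma adjusted p = 0.0171). Obox7 was 31.5 and 32.8 in KO and 40.0 to 45.4 in WT, a difference of -0.41 (SE 0.0880, adjusted p = 0.00304). Obox1 was 252 and 291 in KO (-0.24, SE 0.0860, limma adjusted p = 0.0739), and Obox5 249 and 274 (-0.20, SE 0.108, adjusted p = 0.247). Both lay below every WT library without being called. Obox3 was 0.206 and 0.142 in KO, and Obox6 was listed at 0 in both KO libraries. So 2 of 6 members were called lower and 0 higher, against 6.99% and 5.99% of all genes tested. In 5 of 6 members, all but Obox6, every KO library lay below every WT library, against 20.8% of genes tested, and in 0 above, against 19.6%. The split over all genes was 723 higher and 844 lower, and with FPKM as deposited it was 428 and 1187. The call of Obox2 ended without KO MII replicate 1 (-0.19), WT MII replicate 1 (-0.24) or WT MII replicate 2 (-0.29), and with MII fitted alone. A single spread shared by all libraries, which is wider than that of the eggs, ended both calls.

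At PN3, Obox1 was 305, 279, 300.3 and 258 in KO, below every WT library (318 to 359), a separation seen for 5.11% of genes tested, with 5.09% separated the other way. The difference was -0.24 (SE 0.102, limma adjusted p = 0.229). The other 5 members overlapped between genotypes. With 0 members called, the background was 1.78% of genes higher and 1.27% lower. Obox7 was 46.8 to 49.3 in KO and 44.5 to 55.6 in WT, so its difference at MII was not seen at PN3 (-0.07, SE 0.104). The change of that difference from MII to PN3 was 0.34 (SE 0.136, limma adjusted p = 0.216) and was not called, as for 0 of the 6 members against 1.39% of genes higher and 0.902% lower. Within KO, Obox7 rose from MII to PN3 by 0.56 (adjusted p = 8.40e-05) and Obox3 by 0.48 (SE 0.163, adjusted p = 0.0212), Obox3 staying under 1. Obox2 fell by 0.25 (SE 0.0880, adjusted p = 0.0266). In KO at that step, 17.6% of genes tested were called higher and 23.2% lower.

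At E2C, KO libraries overlapped WT in all 6 members, while 5.36% of genes tested had every KO library above WT and 4.38% every one below. Obox6 was 3.31, 0.715 and 2.51 in KO and 3.20 to 6.91 in WT, a difference of -0.94 (SE 0.343, unadjusted p = 0.0114, limma adjusted p = 0.742). Obox3 was 1.15, 2.46 and 7.80 in KO and 1.13 to 11.6 in WT (-0.58, SE 0.571). Obox5 was 644, 547 and 791 in KO, within 0.10 of WT on the log2 scale with an SE of 0.429. By limma, 0 members were called at this stage, and Obox6 was the only member with an unadjusted p under 0.05. Over all genes 0 were called higher and 1 lower (0% and 0.00828%), with 722 at an unadjusted p under 0.05. Within KO, Obox3, Obox5 and Obox6 rose from PN3 to E2C by 1.30, 1.08 and 1.49, and Obox2 fell by 0.68, against 8.87% and 12.2% of genes tested. With FPKM as deposited, the KO split over all genes at this step moved from 1071 higher and 1473 lower to 653 and 2093.

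At L2C, Obox5 was 271, 475 and 467 in KO against 70.3, 65.6 and 318 in WT. The difference was 1.77 (SE 0.390, limma adjusted p = 0.0366), and WT replicate 3 lay above the lowest KO library. Obox7 was 15.1, 19.4 and 20.6 in KO against 3.58, 3.12 and 12.7 in WT (1.59, SE 0.318, adjusted p = 0.0213), with no overlap. Obox2 was 44.4, 70.5 and 68.5 in KO against 20.0, 16.8 and 39.7 in WT (1.30, SE 0.280, limma adjusted p = 0.0334), also with no overlap. Obox1 was 96.1, 123 and 121 in KO against 26.0, 34.2 and 95.5 in WT (1.33, SE 0.311, limma adjusted p = 0.0442). Its highest WT and lowest KO libraries were nearly equal. Higher calls covered 4 of 6 members and 0.447% of all genes tested, and lower calls 0 members and 0.323% of genes. Obox1, Obox2 and Obox7 had every KO library above every WT library, against 8.76% of genes, and 0 members the reverse, against 11.4%.

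These 4 members share sequence and course, so they are not 4 independent observations. Without WT L2C replicate 3 their differences were 1.88 (Obox1), 1.65 (Obox2), 2.51 (Obox5) and 2.15 (Obox7), all called, and calls over all genes went from 54 higher and 39 lower to 1174 and 1413. Of the WT libraries, replicate 3 held the highest level of each of the 4, so larger differences follow from leaving it out. Without WT replicate 1, WT replicate 2, KO replicate 2 or KO replicate 3 of L2C, 0 of the 4 were called, with differences of 0.96 to 1.65. None was called when L2C was fitted alone either, where limma called 0 genes in all and 1952 had an unadjusted p under 0.05. With TPM in place of scaled FPKM, all 4 stayed called, and the split over all genes was 117 higher and 19 lower. The oocyte marker sum was 373 to 859 in WT L2C and 685 to 936 in KO L2C, with 0 of the 10 markers called, or 2 of 10 higher without WT replicate 3. Of the 14 markers of the 2-cell embryo, 0 were called with that library and 12 were called higher in KO without it. That library was set apart by these same marker sums, so larger marker differences in its absence follow from the choice. Without WT replicate 3, 9.72% of all genes tested were called higher and 11.7% lower. The part of these markers in the Obox differences was not tested.

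**Figure D4:**
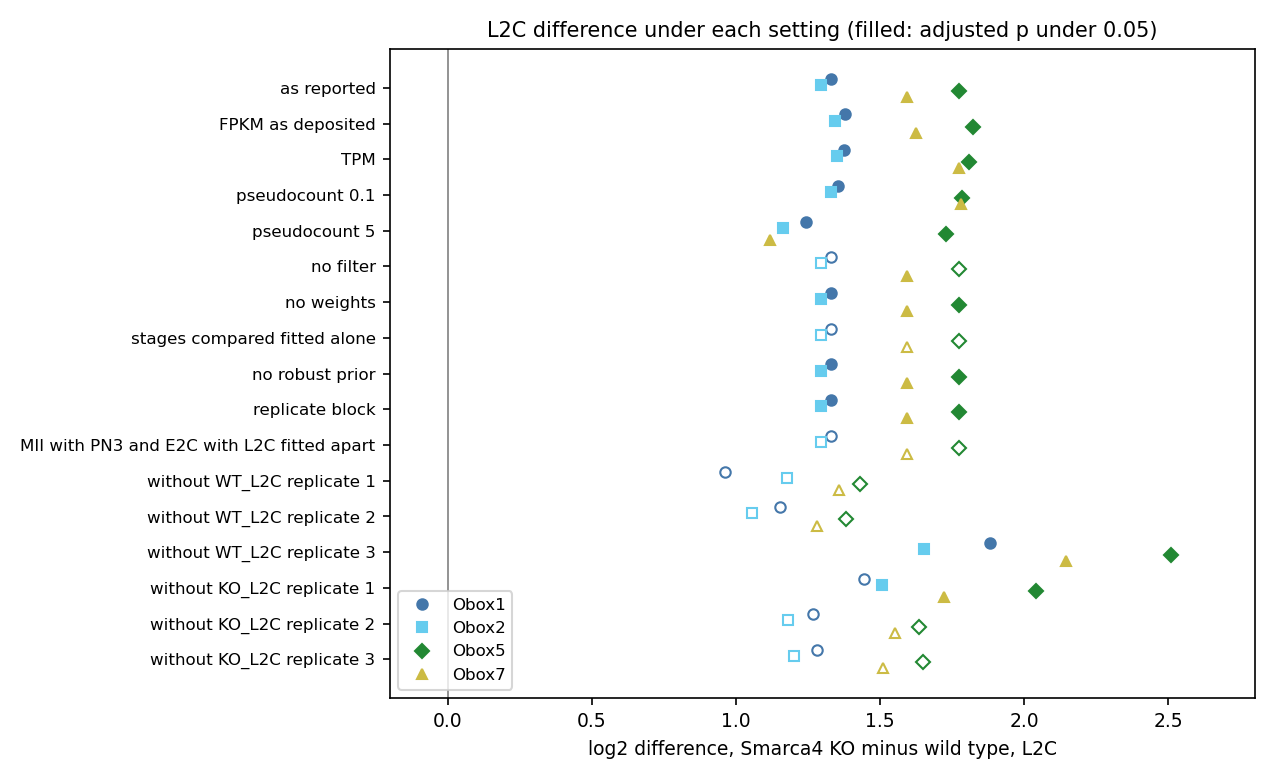
Difference between KO and WT at L2C for Obox1, Obox2, Obox5 and Obox7, in log2(scaled FPKM + 1), under each setting and without each L2C library, filled where the adjusted p was under 0.05. All differences lie above 0, from 0.96 to 2.51, while the calls come and go with the setting.

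The fall of these members from E2C to L2C was present in KO too, for 3 of them. Within KO, Obox1 fell by 1.93 (SE 0.327), Obox2 by 1.84 (SE 0.294) and Obox7 by 1.66 (SE 0.335), all called by limma. Obox5 differed by -0.74 (SE 0.410, limma adjusted p = 0.161) and was not called. In KO 26.8% of genes tested were called higher at this step and 14% lower. From MII to L2C in KO, Obox5 differed by 0.58 (SE 0.288, adjusted p = 0.0769), whereas in WT it fell by 1.39 (SE 0.284, adjusted p = 0.000131), or by 2.13 without WT L2C replicate 3. The other KO calls over that span were Obox3 and Obox6 higher and Obox1, Obox2 and Obox7 lower, against 38% and 30.7% of genes. WT L2C replicate 3 enters the spread behind these KO values too. Without it the estimates for Obox5 stayed at -0.74 and 0.58, and both were called (SE 0.248 and 0.162, limma adjusted p of 0.020 and 0.0028).

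Whether the KO effect differed between E2C and L2C was tested directly. The change in effect was 1.56 for Obox1 (SE 0.463), 1.34 for Obox2 (SE 0.416), 1.87 for Obox5 (SE 0.580) and 1.71 for Obox7 (SE 0.473). Their limma adjusted p ran from 0.264 to 0.285, so none was called, and over all genes 0 were called higher and 1 lower (0% and 0.00828%). Unadjusted p-values were 0.0026, 0.00377, 0.00371 and 0.00145. Without WT L2C replicate 3, these 4 were called, at 2.11, 1.70, 2.61 and 2.26 in that order, against 3.28% of genes higher and 3.68% lower. Among WT L2C libraries it lay nearest KO for these 4 members, so larger values follow from leaving it out. Obox3 (0.63, SE 0.772) and Obox6 (0.46, SE 0.463) had smaller values and were not called.

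The 2 members made at L2C were not called between genotypes at this stage. Obox3 was 39.2, 56.6 and 48.1 in KO against 31.5, 35.4 and 85.1 in WT, a difference of 0.05 (SE 0.519, limma adjusted p = 0.973). Obox6 was 65.5, 60.3 and 54.4 in KO against 126, 84.5 and 55.6 in WT, a difference of -0.48 (SE 0.311, adjusted p = 0.429). The 2 highest Obox6 libraries were WT, and replicate 3 of WT lay among the KO values. Without that library Obox3 differed by 0.49 and Obox6 by -0.77, neither called. Within KO both rose from E2C to L2C, Obox3 by 3.59 (SE 0.546) and Obox6 by 4.36 (SE 0.327), with limma adjusted p of 1.54e-05 and 8.43e-10.

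The make-up of the family at L2C followed these levels. The summed Obox level was 277, 240 and 606 in the 3 WT libraries and 531, 805 and 779 in KO. Obox5 held 51.0% to 59.9% of it in KO and 25.4% to 52.4% in WT. Obox3 held 6.86% ± 0.624 in KO and 13.4% ± 1.79 in WT, with no overlap, WT replicate 3 included (14.0%). Obox6 held 6.98% to 12.3% in KO and 9.17% to 45.3% in WT, which overlap through WT replicate 3. These shares were not tested.

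Other homeobox genes of oocyte and early embryo were read alongside, 27 of a list of 44 having passed the filter. In WT, 12 rose and 3 fell from MII to PN3, 8 rose and 3 fell from PN3 to E2C, and 5 rose and 10 fell from E2C to L2C. Of genes tested, 19.2% rose and 26.1% fell at the first step, 12.9% and 18.1% at the second, and 34.1% and 18.3% at the third. In KO against WT, 3 were called higher and 3 lower in the egg and 0 and 2 in zygotes, and neither 2-cell stage had any (0). The shares of genes tested were 5.99% and 6.99% in the egg and 1.78% and 1.27% in zygotes. Without WT L2C replicate 3, 6 were called higher and 0 lower at L2C, against 9.72% and 11.7% of genes tested. In WT from E2C to L2C, 5 then rose and 11 fell, against 35.3% and 19.8%. At MII, Tgif1 (0.38), Satb1 (0.33) and Zhx1 (-0.31) had the largest called differences. Dux, a double homeobox activator of 2-cell genes, was 4.34 ± 1.41 in WT PN3 and 2.25 ± 0.914 in KO PN3 (-0.72, SE 0.162, limma adjusted p = 0.0132). The ranges overlapped, the lowest WT value being 3.06 and the highest KO value 3.15. At E2C the Dux level was 13.9 ± 3.49 (WT) against 12.5 ± 2.67 (KO), a difference of -0.14 (SE 0.547). The 14 markers of the 2-cell embryo include Dux, and their sum ran from 292 to 514 over WT E2C libraries. Every KO E2C library lay lower, at 134 to 280. The median KO difference of these markers at E2C was -0.99, against 0.05 for all genes tested, with 0 called. At L2C it was 0.84, or 1.49 without WT L2C replicate 3, against -0.05 and -0.06. Whether these marker differences bear on the Obox values was not tested.

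Crxos, a homeobox gene of the early embryo, had a WT course like that of Obox3 and Obox6, listed at 0 in every MII library and 85.3 ± 47.1 in WT L2C. It was 51.6 ± 7.73 in KO L2C (-0.60, SE 0.389, limma adjusted p = 0.433), or -0.85 without WT L2C replicate 3, also not called. Sebox, a maternal homeobox gene, was 43.3 ± 0.631 in WT MII and 98.6 ± 25.7 in WT E2C, where it was highest, as were Obox1, Obox5 and Obox7. Its L2C difference between genotypes was 0.45 (SE 0.217, limma adjusted p = 0.281), and without WT L2C replicate 3 it was called, at 0.70 (SE 0.185, adjusted p = 0.0106).

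Of 27 other factors linked to genome activation, all tested, 13 rose and 3 fell at the first WT step, 13 and 4 at the second and 14 and 5 at the third. At these steps 19.2% and 26.1%, 12.9% and 18.1%, and 34.1% and 18.3% of genes tested were called higher and lower. Between genotypes 0 rose and 2 fell at MII (Sox2, -0.35, and Tfap2c, -0.29), against 5.99% and 6.99% of genes tested. At PN3, Nfya was higher (0.27) and Dux lower, against 1.78% and 1.27% of genes, and 0 were called at E2C or L2C. Leaving out WT L2C replicate 3, 5 were called higher and 8 lower at L2C, against 9.72% and 11.7% of genes tested. Nr5a2, an orphan nuclear receptor, was 36.0 ± 8.04 in WT L2C and 21.2 ± 6.10 in KO L2C (-0.74, SE 0.280, limma adjusted p = 0.163), and without that library it was called, at -0.91 (SE 0.271, adjusted p = 0.0196). The medians of this list and of the homeobox list at L2C were -0.15 and 0.19, that of the 6 Obox members was 1.31, and that of all genes tested was -0.05. Without that library they were -0.16, 0.23, 1.77 and -0.06.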

How the data were processed

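The deposited values were FPKM per gene symbol for 25 libraries of ribosome-depleted, stranded, paired-end RNA. Builds mm10 and GRCm38 are listed, per the submitters' processing notes, with the tools HTSeq, StringTie, HISAT2 and Trim Galore 0.4.5. Which of them made the FPKM, and how they assigned reads shared between genes, those notes as used here do not say. No whole-read steps could be recovered from the values, so depth is unknown. Libraries were rescaled with divisors of 0.865 to 1.11, the median ratio of each library to the per-gene geometric mean of 6492 genes whose FPKM was at least 1 throughout. Genes with FPKM of at least 1 in at least 3 libraries were tested with limma 3.58.1 (R 4.3.3) on log2(scaled FPKM + 1), with 8 group means, a variance weight per stage, and a trended robust prior. Weights were used because the median SD within a group was 0.0633 in WT MII and 0.379 in WT E2C. An earlier analysis of these files used a single shared spread, which is tried here as an alternative. The test was run on simulated data with a single spread per stage for every gene and no odd libraries. That check therefore cannot show whether the calls at L2C hold. Members, gene lists, the weights and the rules for named genes were chosen with earlier results of these data known. Named were all members, the 3 most alike genes of each, the called genes of each list with the largest differences, and Dux, Sebox, Crxos and Nr5a2. One gene that this rule would name is not reported here. The alternatives were other scalings, pseudocounts of 0.1 and 5, no filter, no weights, no robust prior, stages fitted alone, a replicate block and each library left out.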

Additional observations from a re-analysis of the deposited data

How the results depend on the processing

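The stage of each member's highest WT mean was the same under every scaling and without any WT library. In WT, the E2C to L2C and MII to L2C calls of all 6 members held under every alternative run. Depth is unknown, so the counting error of low levels, such as those of Obox3 and Obox6 before E2C, cannot be given. The size of a log2 step from such levels also depends on the pseudocount. In KO the PN3 to E2C step ran from 0.57 to 2.00 for Obox3 and from 0.49 to 3.72 for Obox6 over all settings.

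The 4 calls at L2C depended on the setting. The count was 1 with no filter, 1 without WT E2C replicate 2 and KO E2C replicate 3 together, 0 with the stage fitted alone and 0 with MII and PN3 fitted apart from E2C and L2C, the last chosen after seeing the data. It ran from 0 to 4 without single libraries. Over all settings the difference stayed positive, at 0.96 to 1.88 for Obox1, 1.06 to 1.65 for Obox2, 1.38 to 2.51 for Obox5 and 1.12 to 2.15 for Obox7. Obox1 lost its call in 27 of 36 alternatives, Obox2 in 9, Obox5 in 9 and Obox7 in 6. The change in KO effect from E2C to L2C was called for 4 members with no weights, where the shared spread is too narrow for these stages. Without single libraries it was called for 0 to 4. The 2 members called lower at MII became 0 with no weights, 1 with MII fitted alone and 1 to 3 without single libraries. With no weights, limma called 0 genes higher and 1 lower over all genes in the egg, then 4 and 6 in zygotes, 100 and 112 in early and 934 and 939 in late 2-cell embryos. With each stage fitted alone it called 253 and 372, 51 and 45, 0 and 0, and 0 and 0.

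For steps between stages, WT members called higher from MII to PN3 numbered 1 with TPM, with pseudocount 5, with those stages fitted alone and with MII and PN3 fitted apart from E2C and L2C, and 0 to 1 without single libraries. The 1 called lower became 0 with no weights. From PN3 to E2C the 1 WT member called lower ran from 0 to 1 without single libraries. In KO from MII to PN3, members called higher numbered 1 with pseudocount 5 and with no filter, 0 with no weights, and 1 to 3 without single libraries. Members called lower numbered 0 with FPKM as deposited, TPM, no filter and no weights, and 0 to 1 without single libraries. In KO from PN3 to E2C, 1 was called higher with TPM, 0 lower with pseudocount 0.1 and with no filter, and without single libraries counts ran from 1 to 4 and from 0 to 1.

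Replicate numbers were not treated as pairing the libraries. The labels state no shared litter or day, and at no stage did every same-numbered pair have a correlation of deviations over 0.1 (range over pairs -0.18 to 0.43). As a hint from the data, not the design, the WT library matched its own number best in 3 of 3 numbers at E2C, 3 of 4 at PN3, 1 of 3 at L2C and 1 of 2 at MII. With a replicate block, 1 member was called lower in KO at PN3 (Obox1, -0.24, limma adjusted p = 0.0476), 1 higher and 0 lower in KO from MII to PN3, and 1 higher in KO from PN3 to E2C. Signs turned under the block for Obox3 in WT from MII to PN3 (-0.14), Obox5 in KO from MII to L2C (-0.000479) and the change in KO effect of Obox1 from MII to PN3 (0.0227). Over all genes the block called 614 higher and 470 lower at PN3.

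Other values that changed sign were uncalled and near 0 in the fit reported. With FPKM as deposited they were Obox2 between genotypes at E2C (0.00197) and the changes in KO effect of Obox1 from MII to PN3 (0.0350) and Obox7 from PN3 to E2C (0.0128), and with TPM that of Obox1 from MII to PN3 (0.00540). Without WT E2C replicate 2 and KO E2C replicate 3 together, the change in KO effect from PN3 to E2C was -0.17 for Obox1, -0.14 for Obox2 and -0.25 for Obox5. Without single libraries it ran from -0.0881 to 0.16 (Obox1), -0.0551 to 0.34 (Obox2), -0.13 to 0.14 (Obox5) and -0.17 to 0.12 (Obox7), and that of Obox1 from MII to PN3 from -0.11 to 0.10. Differences between genotypes ran from -0.21 to 0.19 (Obox2), -0.24 to 0.0295 (Obox5) and -0.24 to 0.0496 (Obox7) at E2C, from -0.00286 to 0.0580 for Obox6 at PN3, and from -0.21 to 0.49 for Obox3 at L2C. The MII to PN3 step ran from -0.0642 to 0.13 for Obox3 in WT and from -0.0310 to 0.18 for Obox1 in KO.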
